A study of Homo sapiens with 9 samples.

Results

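The keratin, claudin and desmosomal genes of an RNA sequencing experiment on TRAP-1 in IMR-32 cells were examined. The members were all protein-coding genes of the expression table whose symbol is a keratin (KRT), a claudin (CLDN), a desmosomal cadherin (DSC or DSG), a desmosomal plaque gene (DSP, JUP or PKP), EPCAM, ESRP1, ESRP2 or LYPD3. Of 96 annotated protein-coding genes with such a symbol, 49 had values and were used, out of 22290 genes in the table, and the others were not analysed here. IMR-32 is an established human neuroblastoma cell line, and TRAP-1 is the mitochondrial homolog of the chaperone Hsp90. RNA was sequenced from 9 libraries. The 3 parental libraries carry the genotype label WT, 3 libraries are labelled TRAP-1 knockdown (KD) and 3 TRAP-1 overexpression (OE). The KD and OE cells had been made in earlier work, and the constructs and whether each line is 1 clone are not given in the sources used here. The values are regularized log2 expression values (rlog), which are scaled for library size and pulled toward the mean of each gene, more strongly at low levels. The lowest mean that the authors' minimum of 10 counts over 9 libraries allows is an rlog of 0.152. Sequencing depth cannot be read from such values.

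Keratins build the intermediate filaments of epithelial cells from pairs of a type I and a type II chain, with KRT8 and KRT18 in simple epithelia and other pairs in the layers of the epidermis and in hair. Claudins form the strands of tight junctions, and desmosomes fasten keratin filaments to the membrane through cadherins (DSC and DSG) and plaque proteins (DSP, JUP and PKP). Neuroblastoma arises from the sympathoadrenal lineage of the neural crest, and IMR-32 is known for an amplified MYCN gene.

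TRAP1 itself did not follow the labels. Its rlog value was 10.67, 10.66 and 10.65 in the parental libraries, 10.79, 10.79 and 10.83 in the libraries labelled KD, and 10.67, 10.63 and 10.74 in the libraries labelled OE. All 3 libraries labelled KD lay above all 3 parental libraries, while those labelled OE overlapped with the parental ones. The rlog difference from parental was 0.14 in KD (adjusted p = 1.8e-05 from limma) and 0.018 in OE (adjusted p = 0.643 from limma). The OE value was 0.074 and called with the 20-Mb block median removed. Other annotated genes share 28.5% of the exonic bases of TRAP1, and their reads cannot be told apart here. KD and OE are therefore used throughout as names of libraries, not as statements about TRAP-1. The labels do not say that replicates were separate cultures, so the p-values measure only the spread between these libraries, which may be technical.

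Most of the epithelial genes were low. To set genes of different length side by side, log2 of the exonic length in kb was subtracted from the rlog value, and each level per exonic kb was ranked among the 14697 protein-coding genes of the table. The median member stood at the percentile 19.6 of the parental level per kb, 20 of 49 members were under the percentile 15, and 8 lay above the median of all protein-coding genes. These 8 were KRT18 (percentile 93.7), KRT10 (85.4), LYPD3 (81.4), CLDN15 (67.7), PKP3 (63.5), CLDN4 (62.4), PKP4 (52.8) and DSG2 (52.4). The module was thus uneven, with a chain of simple epithelium, a suprabasal keratin, a few junction genes and LYPD3 at sizeable levels and most other members low. EPCAM, the adhesion molecule of most simple epithelia, had an rlog value of 2.59 ± 0.02 (SD, n = 3) in the parental libraries and the percentile 12.6. ESRP1, a splicing factor of epithelial cells, was at 2.67 ± 0.05 (SD, n = 3) with the percentile 8.57, and its paralog ESRP2 at 5.35 ± 0.03 (SD, n = 3) with the percentile 21.2. KRT5, the basal partner of KRT14, had an rlog value of 1.46 ± 0.02 (SD, n = 3) and the percentile 4.71. KRT13, KRT20 and PKP1, with parental rlog values of 0.40, 0.24 and 0.32, were close to the floor. KRT5 and ESRP1 were low in the other cells as well. The percentile of KRT5 was 4.73 in KD and 4.68 in OE, and that of ESRP1 was 8.51 in KD and 8.75 in OE.

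**Figure D1:**
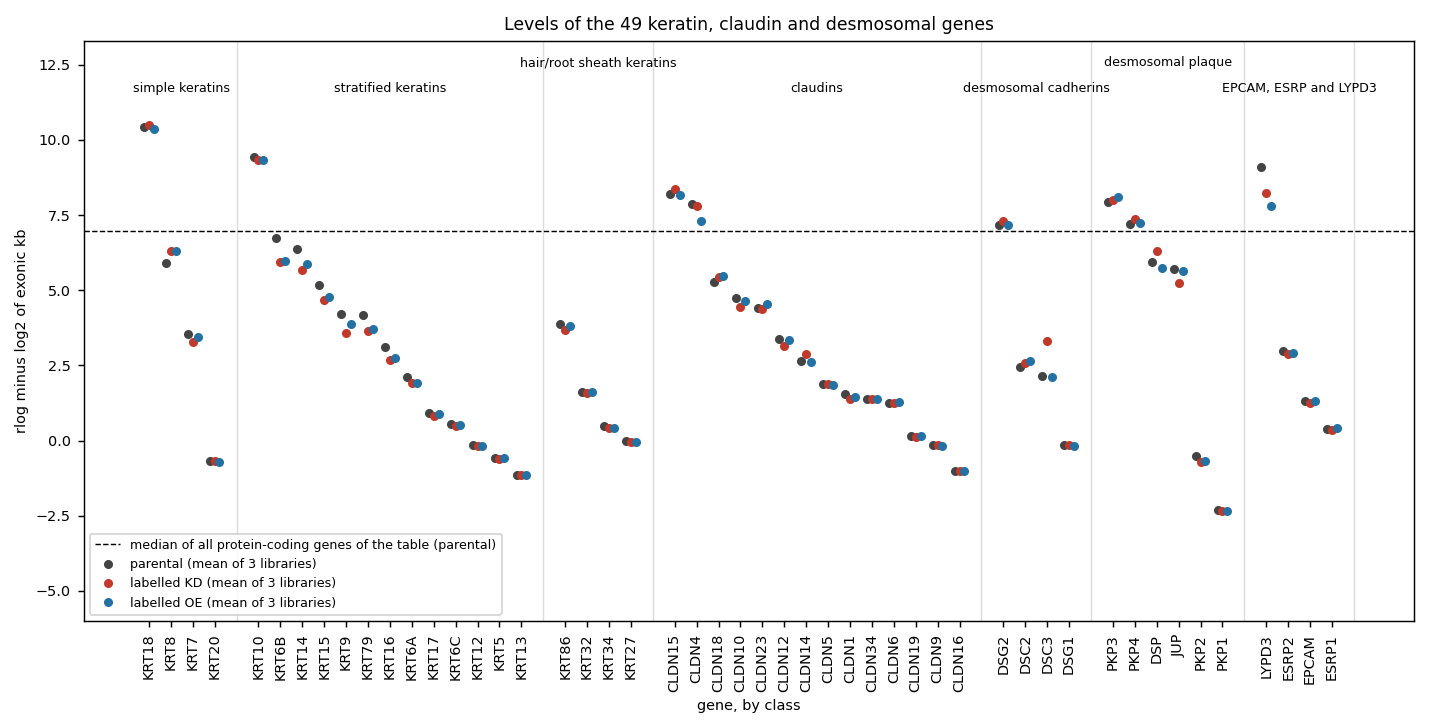
Mean rlog minus log2 of exonic kb (vertical axis) of the 49 members, by class, in the parental, KD and OE libraries (points, mean of 3 libraries each); the dashed line is the median of all 14697 protein-coding genes in the parental libraries. KRT18 and KRT10 stood highest and most members lay under the line in all 3 groups.

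Among the keratins with values, type I and type II chains were not at like levels. Annotated keratins without values are in neither of the sums that follow. Back on the linear scale, the summed level of the 13 type I genes was 2236, 2263 and 2232 normalized counts per exonic kb in the parental libraries, of which KRT18 made 62.1%. The sum of the 8 type II genes was 215, 213 and 224 normalized counts per exonic kb, with KRT6B as the most abundant by the union of exons. By the longest transcript KRT8 was above KRT6B, at 7.18 against 6.73 on the log2 scale per kb. KRT8, the partner of KRT18, stood at the percentile 39.0 of the parental level per kb against 93.7 for KRT18. Near-identical copies touch this value. Of 51 annotated KRT8 pseudogenes, 5 had values in the table, and KRT8P12 alone reached 774 normalized counts in the parental libraries against 416 for KRT8. Of 68 annotated KRT18 pseudogenes, 6 had values, which summed to 73.1 normalized counts against 4279 for KRT18. How reads that match several copies were counted is not given in the sources used here, so the level of KRT8 is uncertain. The same holds within the near-identical paralogs KRT6A, KRT6B and KRT6C and within KRT14, KRT16 and KRT17. The library kit does not mark the strand and the counting setting is not given, so overlapping genes cannot be told apart, and 17.1% of the exonic bases of KRT18 and 7.6% of those of KRT8 are shared with other annotated genes.

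Mesenchymal markers stood higher than epithelial ones in the parental libraries. All 11 mesenchymal genes and regulators of the epithelial-mesenchymal transition had a mean rlog over 5, and their median percentile per kb was 75, with VIM, the filament protein of mesenchymal cells, at 99.5 and the epithelial repressor ZEB1 at 67.0. Of the epithelial partners outside the module, 33 of 37 were measured, with a median percentile of 14.2. GRHL2, OVOL1 and TP63, which encode regulators of epithelial and squamous identity, were low, with the percentiles 10.6, 3.85 and 2.37. Some genes of that list were high, among them ERBB3 (93.6), PERP (83.7) and KLF5 (83.1), but ERBB3 is also a receptor of the neural crest. Of 11 markers of cornified keratinocytes only TGM1, SFN and CNFN were measured, at the percentiles 27.2, 24.7 and 31.2. The adrenergic and chromaffin markers, which the label neuroblastoma calls for, were mostly low as well. Of 19 measured of 28, 10 had a mean rlog under 5, and the median percentile was 18.7. MYCN had an rlog value of 2.54, 2.46 and 2.54 in the parental libraries, 2.58, 2.61 and 2.61 in KD and 2.52, 2.50 and 2.51 in OE, with the parental percentile 11.5. MYCN was thus near the low end in every library, against the amplification known of IMR-32. TH, the first enzyme of catecholamine synthesis, was at 2.84 ± 0.02 (SD, n = 3), while GATA3 (percentile 36.1), ISL1 (62.5) and SOX11 (74.5) were higher. Of 6 Schwann and melanocyte markers 4 were measured, with a median percentile of 69.2. Among them S100B, a calcium-binding protein of glial cells, stood at 92.4. Markers of fibroblasts, endothelium and blood had median percentiles of 7.89, 14.9 and 15.1.

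**Figure D2:**
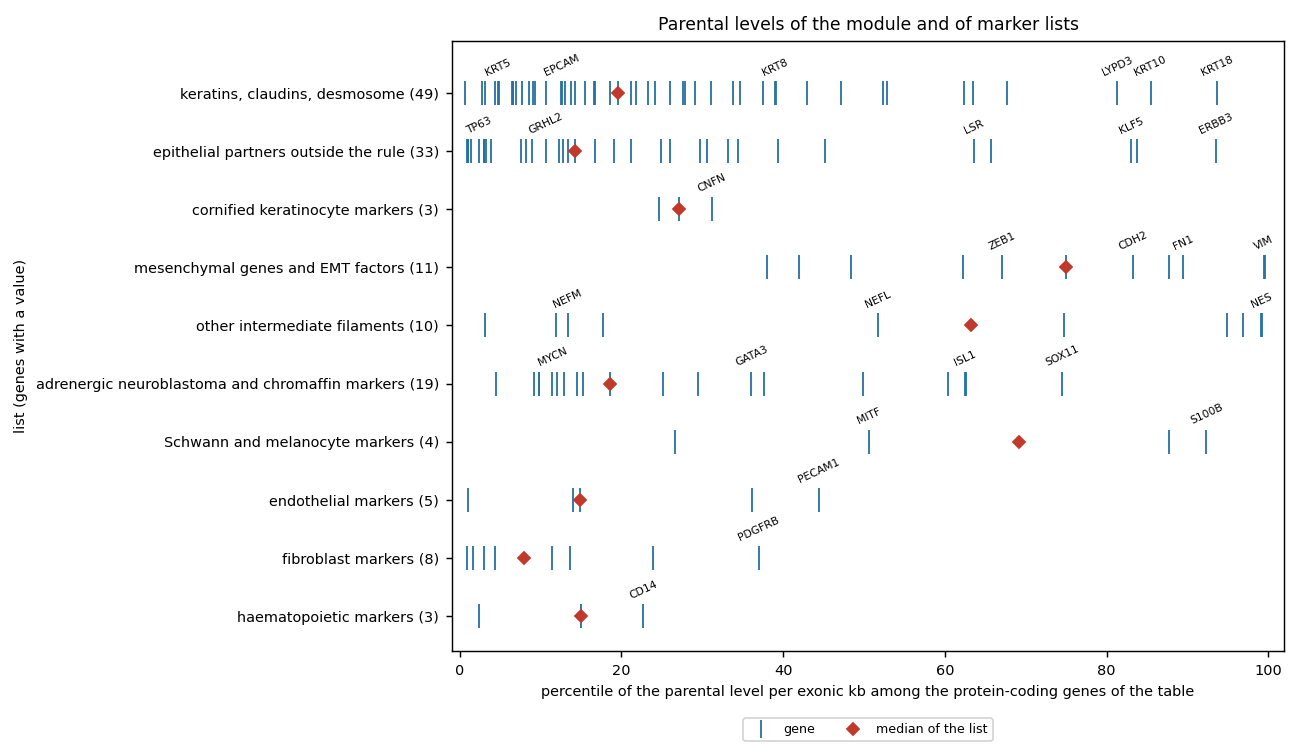
Percentile of the parental level per exonic kb among the protein-coding genes of the table (horizontal axis) for each measured gene (ticks) of the 49 members and of 9 marker lists, with the median of each list (diamonds). The mesenchymal list had its median at 75, the 49 members at 19.6 and the adrenergic list at 18.7.

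The share of members called at an adjusted p under 0.05 was near that of all genes in the KD comparison. The direction leaned toward lower levels. Differences of rlog group means were tested with limma over all 22290 genes, and a gene was called at an adjusted p under 0.05. Between KD and parental libraries 27 of 49 members were called (55.1%), against 53.7% of all genes, and at mean rlog values from 5 upward they were 20 of 25 members (80%) against 71.7% of genes. Of the 49 members, 9 were higher and 18 lower in KD (18.4% and 36.7%), whereas 26.9% of all genes were higher and 26.9% lower. With a difference over 0.5 required as well, 12.2% of members were called in KD, against 4.98% of all genes. With the 20-Mb block median removed and no minimum difference, 69.4% of members and 60.0% of all genes were called in KD. Between OE and parental libraries 20 members were called (40.8%), against 34.8% of all genes, and 14 of the 25 better-expressed members (56%) against 50.3% of genes at such levels. Of these 20 members, 4 were higher and 16 lower in OE (8.16% and 32.7% of 49), with a background of 16.9% higher and 18% lower over all genes. Between OE and KD libraries 20 members were called (40.8%), against 47.3% of all genes. Of those, 11 were higher and 9 lower in OE than in KD (22.4% and 18.4%), against 23.5% and 23.8% of all genes, and 18 of the 25 better-expressed members were called (72%) against 64.1%. With the 20-Mb block median removed, 30 members were called between OE and KD (61.2%), against 53.5% of all genes. The median rlog difference of the members was -0.036 in KD and -0.037 in OE, against -5.1e-04 and 3.9e-04 for all genes. Of the 24 members with lower means, 7 were called in KD (29.2%), 6 in OE (25%) and 2 between OE and KD (8.33%), against 23.4%, 8.75% and 19.0% of genes at such levels. The differences from the background were thus counts of a few genes. In bulk libraries, fewer cells of a type and less RNA per cell cannot be told apart.

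Both comparisons use the same 3 parental libraries, so their values are given side by side and not as independent evidence. Of the 49 members, 12 were called lower in both (24.5%) and 3 higher in both (6.12%), namely KRT8, CLDN18 and DSC2. Of all 22290 genes, 2773 were called lower in both (12%) and 2443 higher in both (11%). The plaque gene DSP was called higher in KD and lower in OE (2.04% of members, against 2.17% of all genes). Further members were called in 1 comparison, 5 higher and 6 lower in KD alone and 1 higher and 3 lower in OE alone, and 18 were called in neither. Those 12 lower members were LYPD3, the keratins KRT6A, KRT6B, KRT9, KRT10, KRT14, KRT15, KRT16, KRT34 and KRT79, CLDN1 and PKP2. KRT34, near the floor, had an OE difference of -0.050 that was not called without parental replicate 2 (-0.028), OE replicate 1 (-0.048) or OE replicate 2 (-0.048). DSC2 had a KD difference of 0.13 that was not called without parental replicate 3 (0.12) or KD replicate 2 (0.088). Of the members lower in both, KRT6A, KRT16, CLDN1 and PKP2 were not followed through the alternatives.

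**Figure D3:**
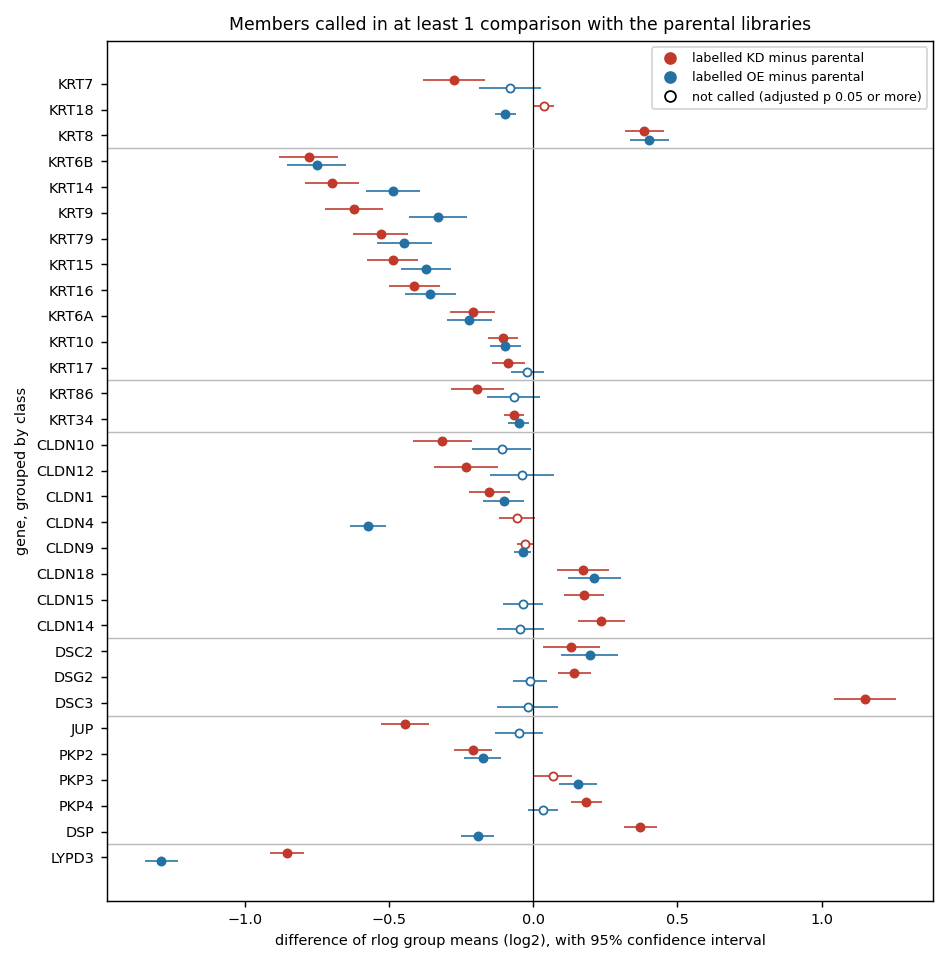
Difference of rlog group means from parental (horizontal axis, log2) with its 95% confidence interval for the 31 members called in at least 1 comparison, in KD (red) and OE (blue), grouped by class; open points were not called. The stratified keratins and LYPD3 lay to the left of 0 in both comparisons, and DSC3 stood far to the right in KD alone.

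Sequences before the start of members that were lower in both comparisons are shown for the 4 genes whose window is free of annotated exons, without KRT34, which was near the floor and whose OE call was lost when single libraries were left out. The 250 bases upstream of the start come from RefSeq (GRCh38.p14). The set of windows used here held 37 windows for 29 of the 49 members, and 20 members had no entry in that set. The windows are chr19:43465609-43465858 for LYPD3, chr17:40822615-40822864 for KRT10, chr12:52834312-52834561 for KRT79 and chr17:41572060-41572309 for KRT9, all on the minus strand, printed 5′ to 3′ and free of annotated exons. Capitals mark matches, on either strand, to a TATA box (TATAAA), an AP-1 site (TGANTCA), a GC box (GGGCGG) or an E-box (CAGGTG), and no matches overlapped in these windows.
LYPD3: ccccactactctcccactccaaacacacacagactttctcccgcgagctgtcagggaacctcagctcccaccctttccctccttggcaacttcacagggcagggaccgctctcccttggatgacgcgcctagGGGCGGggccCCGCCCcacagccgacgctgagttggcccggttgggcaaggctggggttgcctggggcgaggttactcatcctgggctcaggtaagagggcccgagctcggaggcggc
KRT10: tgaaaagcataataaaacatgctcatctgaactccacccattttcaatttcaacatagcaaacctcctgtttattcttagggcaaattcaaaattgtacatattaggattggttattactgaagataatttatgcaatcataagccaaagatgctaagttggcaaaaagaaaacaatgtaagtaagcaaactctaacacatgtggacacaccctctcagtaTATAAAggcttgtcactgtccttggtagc
KRT79: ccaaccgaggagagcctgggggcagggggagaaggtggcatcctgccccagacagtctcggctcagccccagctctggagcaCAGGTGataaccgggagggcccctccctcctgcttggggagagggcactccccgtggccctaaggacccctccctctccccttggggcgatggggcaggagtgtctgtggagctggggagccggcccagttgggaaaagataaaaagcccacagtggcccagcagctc
KRT9: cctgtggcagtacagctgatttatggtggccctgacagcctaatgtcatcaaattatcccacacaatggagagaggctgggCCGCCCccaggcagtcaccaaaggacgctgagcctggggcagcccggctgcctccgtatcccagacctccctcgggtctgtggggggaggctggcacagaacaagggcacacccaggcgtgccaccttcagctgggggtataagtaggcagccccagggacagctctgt
LYPD3 held 2 GC boxes on opposite strands, KRT10 a TATA box that begins 29 bases before the start, KRT79 an E-box and KRT9 a GC box. The window of KRT34, not shown, held a TATA box 31 bases before the start, and no motif was shared by all 4 printed windows. Over the 37 windows of members the TATA box was in 8.11%, the AP-1 site in 8.11%, the GC box in 43.2% and the E-box in 24.3%. Over all 35116 windows of the same length the shares were 10.7%, 6.57%, 42.6% and 17.5%. These are letter matches only, and some members' windows overlap annotated exons.

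LYPD3 was lower in both kinds of cells. The gene (ENSG00000124466, chromosome 19 from 43460787 to 43465608, GRCh38), a surface protein of the Ly6 family found in stratified epithelia, had rlog values of 10.39, 10.42 and 10.36 in the parental libraries, 9.50, 9.54 and 9.57 in KD, and 9.08, 9.12 and 9.11 in OE. The 3 groups did not overlap, with parental highest and OE lowest. The rlog difference was -0.85 in KD (standard error 0.029, adjusted p = 3.1e-22 from limma) and -1.29 in OE (adjusted p = 5.7e-26 from limma, standard error 0.029). The libraries labelled OE were also lower than those labelled KD, by -0.44 (adjusted p = 1.9e-14 from limma). Its percentile per kb went from 81.4 in parental to 68.4 in KD and 61.7 in OE, so LYPD3 was still above the median gene in every group. The value of -1.29 was also the most negative rlog difference of all 22290 genes in the OE comparison, but the scale shrinks low genes more, so this is no rank of true size.

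Most measured keratins of stratified epithelia were lower in both kinds of cells. Of 13 measured, 9 were called lower in KD (69.2%, against 26.9% of all genes) and 8 in OE (61.5%, against 18% of all genes) and none was called higher, with median rlog differences of -0.21 and -0.22. Their summed level was 950, 994 and 978 normalized counts per exonic kb in the parental libraries, 819, 826 and 828 in KD, and 856, 848 and 825 in OE, and 71.3% of the parental sum was KRT10. The sums of KD and OE lay under all parental sums and overlapped with each other. KRT6A, KRT6B and KRT6C, and likewise KRT14, KRT16 and KRT17, are near-identical paralogs. The part of shared reads in their calls was not tested. KRT6B, a keratin of wound-activated and appendage epithelium, had rlog values of 7.89, 7.85 and 8.04 in parental, 7.08, 7.18 and 7.20 in KD, and 7.26, 7.19 and 7.09 in OE. KRT6B was lower in all 6 KD and OE libraries than in any parental one, by -0.78 in KD (adjusted p = 7.9e-15 from limma) and -0.75 in OE (adjusted p = 9.9e-14 from limma). KRT14, the type I chain of basal keratinocytes, read 7.51, 7.60 and 7.52 in parental, 6.91, 6.84 and 6.79 in KD, and 6.99, 7.05 and 7.12 in OE on the rlog scale. Its 3 groups were apart, with OE between KD and parental, and the OE libraries were higher than the KD libraries by 0.21 (adjusted p = 2.7e-04 from limma). KRT15, another basal type I chain, was at 7.74 ± 0.07, 7.25 ± 0.02 and 7.37 ± 0.04 (SD, n = 3 each) in parental, KD and OE.

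KRT9, a keratin of palm and sole epidermis, and KRT79, a keratin of hair follicle and gland ducts, were at lower levels and fell as well. KRT9 had rlog values of 5.42, 5.46 and 5.35 in parental, 4.74, 4.79 and 4.85 in KD, and 5.07, 5.17 and 5.01 in OE. The groups were apart in the order parental, OE, KD, with differences from parental of -0.62 and -0.33 in KD and OE (adjusted p = 1.4e-12 and 2.1e-06 from limma). KRT79 read 5.56, 5.49 and 5.52 in parental, 5.04, 4.93 and 5.02 in KD, and 5.02, 5.12 and 5.09 in OE on the rlog scale. KD and OE overlapped with each other for KRT79, and both lay under parental. KRT10, the type I chain of suprabasal epidermis and the most abundant keratin of this class per kb, changed little in size, with rlog differences of -0.10 in KD and -0.096 in OE (adjusted p = 8.1e-04 and 0.00327 from limma). Because rlog differences shrink with the level, the sizes of low and high genes are not ranked against each other. KRT16 and KRT6A, at 4.41 and 3.67 in parental, were also called lower in both comparisons, while KRT5, KRT6C, KRT12 and KRT13, with parental rlog values between 0.40 and 2.11, were called in neither. Of the keratins of hair and inner root sheath, KRT86 was lower in KD by -0.19 (adjusted p = 4.5e-04 from limma), and KRT27, KRT32 and KRT34 were near the low end with parental rlog values of 0.82, 2.64 and 1.19.

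**Figure D4:**
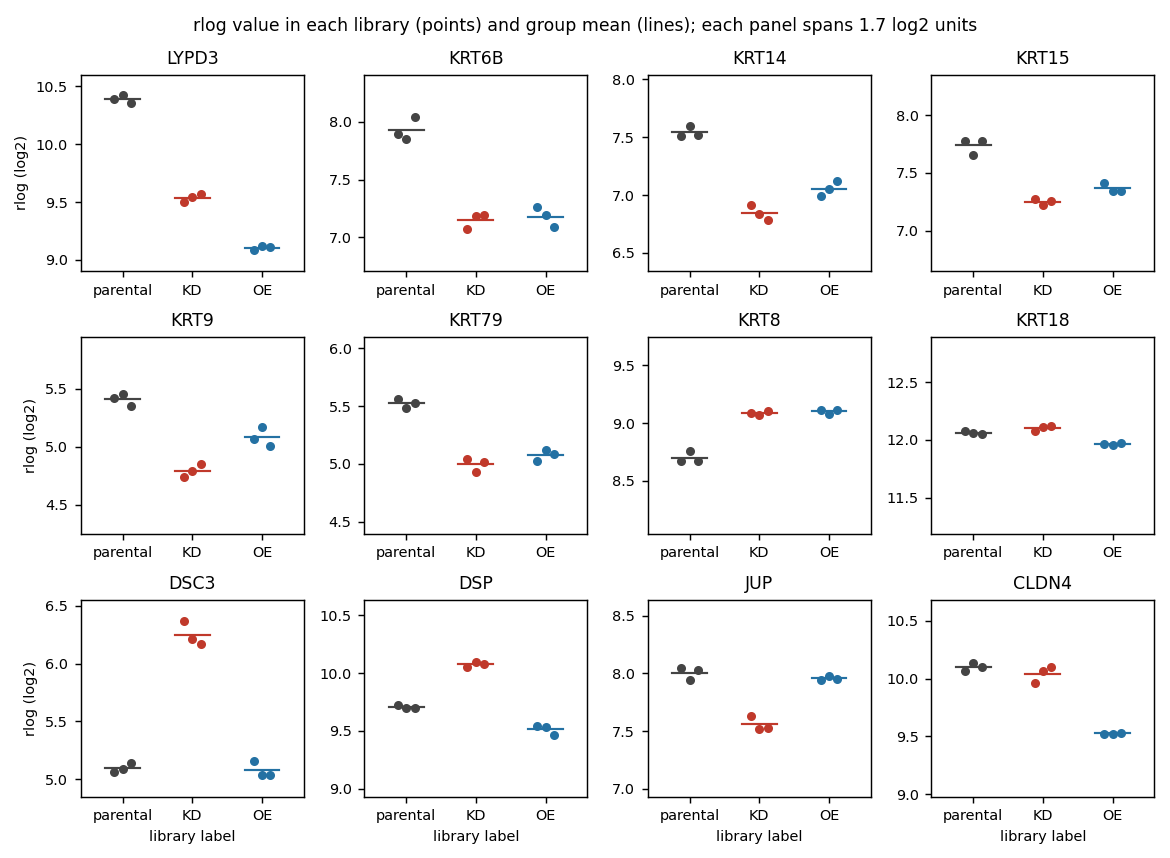
rlog value (vertical axis, log2) of 12 members in each parental, KD and OE library (points) with the group mean (lines); every panel spans the same range of 1.7 log2 units. LYPD3, KRT6B, KRT14, KRT15, KRT9 and KRT79 were highest in the parental libraries, KRT8 was lowest there, DSC3 and DSP were highest in KD, JUP was lowest in KD and CLDN4 was lowest in OE.

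Of the 4 measured keratins of simple epithelia, 1 was higher and 1 lower in each comparison with parental (25% each, against 26.9% and 26.9% of all genes in KD and 16.9% and 18% in OE). KRT8 had rlog values of 8.67, 8.76 and 8.67 in parental, 9.08, 9.07 and 9.10 in KD, and 9.12, 9.08 and 9.12 in OE. KD and OE overlapped with each other and lay above parental, with differences of 0.39 and 0.40 (adjusted p = 7.1e-12 and 1.0e-11 from limma). Its pseudogene KRT8P12 was higher in KD (rlog 9.83) and lower in OE (9.41) than in parental (9.60), and the part of shared reads in the change of KRT8 was not tested. KRT18, the partner chain, read 12.08, 12.06 and 12.06 in parental, 12.07, 12.11 and 12.12 in KD, and 11.97, 11.96 and 11.97 in OE. KRT18 was lower in OE by -0.096 (adjusted p = 5.1e-05 from limma), and KD overlapped with parental (0.037, adjusted p = 0.0817 from limma). The KD value was called under median centring and quantile normalization and among genes filtered by level, and it was 0.050 and called without KD replicate 1. With the 20-Mb block median removed, the KD difference of KRT18 was -0.006 and not called. KRT7, a type II chain of glandular epithelium, was lower in KD by -0.27 (adjusted p = 3.8e-05 from limma), and KRT20 of gut epithelium was at the floor in all groups.

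Among 14 measured claudins no common direction was seen, with 3 higher and 3 lower in KD (21.4% each, against 26.9% and 26.9% of all genes) and 1 higher and 3 lower in OE (7.14% and 21.4%, against 16.9% and 18%). CLDN4, a barrier claudin of many epithelia, had rlog values of 10.06, 10.14 and 10.10 in parental, 9.96, 10.06 and 10.10 in KD, and 9.52, 9.52 and 9.53 in OE. The OE libraries lay under all others, with a difference from parental of -0.57 (adjusted p = 3.8e-16 from limma) and from KD of -0.52 (adjusted p = 1.6e-15 from limma), while KD overlapped with parental. The KD difference of CLDN4 was -0.057 (adjusted p = 0.119 from limma), but without KD replicate 3 it was -0.087 and called. CLDN15, a cation-pore claudin of the intestine, was higher in KD by 0.18 (adjusted p = 3.9e-05 from limma), and its OE difference was -0.034 (adjusted p = 0.486 from limma). CLDN18, known from stomach and lung, was higher in KD by 0.17 and in OE by 0.21 (adjusted p = 0.00121 and 2.4e-04 from limma). CLDN10 and CLDN12 were lower in KD by -0.31 and -0.23 (adjusted p = 3.0e-06 and 5.1e-04 from limma), though 46% of the exonic bases of CLDN10 are shared with other genes. CLDN14, at a low rlog value of 3.90 in parental, was 0.24 higher in KD (adjusted p = 5.8e-06 from limma). CLDN5 of endothelium and CLDN6 of embryonic epithelium, at parental rlog values of 3.68 and 2.06, were not called in any comparison. The summed level of the claudins was 632, 660 and 648 normalized counts per exonic kb in parental, 644, 679 and 700 in KD, and 563, 565 and 576 in OE, so only the OE sums lay apart from parental.

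Of the 4 measured desmosomal cadherins, 3 were higher in KD (75%, against 26.9% of all genes) and 1 in OE (25%, against 16.9%), and none was lower. Of the 6 plaque genes, 2 were higher and 2 lower in KD (33.3% each, against 26.9% and 26.9% of all genes). In OE, 1 was higher and 2 were lower (16.7% and 33.3%, against 16.9% and 18%). DSC3 (ENSG00000134762, chromosome 18 from 30989365 to 31042815, GRCh38), a desmocollin of stratified epithelium, had rlog values of 5.06, 5.08 and 5.14 in parental, 6.37, 6.21 and 6.17 in KD, and 5.16, 5.04 and 5.03 in OE. All KD libraries lay about 1 log2 unit above the others, and OE overlapped with parental. The difference was 1.15 in KD (standard error 0.052, adjusted p = 1.0e-18 from limma), and -0.020 in OE (adjusted p = 0.822 from limma). The neighbouring DSC2 and DSG2 of the same cadherin cluster on chromosome 18, both widespread in epithelia, changed less. DSG2, the most abundant desmosomal cadherin per kb, was higher in KD by 0.14 (adjusted p = 7.4e-05 from limma) and differed by -0.011 in OE. DSC2 was called higher in both, but without KD replicate 2 its KD difference of 0.13 became 0.088 and without parental replicate 3 it became 0.12, and neither was called. With the 20-Mb block median removed, the KD difference was 0.055 for DSC2 (adjusted p = 0.347 from limma), 0.066 for DSG2 and 1.07 for DSC3. DSG1 of the upper epidermis, with a parental rlog value of 2.75, was not called. Over the 38 well-expressed genes of the 20-Mb block that holds this cluster the median rlog difference in KD was 0.078.

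DSP, the plaque protein that binds keratin filaments, had rlog values of 9.72, 9.70 and 9.70 in parental, 10.05, 10.10 and 10.08 in KD, and 9.54, 9.53 and 9.47 in OE. DSP was the 1 member called in opposite directions, higher in KD by 0.37 (adjusted p = 4.2e-13 from limma) and lower in OE by -0.19 (adjusted p = 1.3e-06 from limma), with all 3 groups apart. Of all genes, 2.17% were called in these directions, against 2.04% of members. JUP, or plakoglobin, which joins cadherins to DSP, read 8.05, 7.94 and 8.03 in parental, 7.63, 7.52 and 7.53 in KD, and 7.94, 7.97 and 7.95 in OE. JUP thus went the other way in KD, with a difference of -0.44 (adjusted p = 4.9e-11 from limma), and OE overlapped with parental. The plakophilins PKP3 and PKP4 were the most abundant plaque genes per kb. PKP4 was higher in KD by 0.18 (adjusted p = 2.7e-07 from limma), and PKP3 was higher in OE by 0.16 (adjusted p = 2.4e-04 from limma). PKP2, low with a parental rlog value of 2.85, was called lower in both comparisons.

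EPCAM and the splicing factors ESRP1 and ESRP2 were not called against parental in either comparison. In the fit without variance trend, EPCAM (-0.053, adjusted p = 0.0373 from limma) and ESRP2 (-0.092, adjusted p = 0.0266 from limma) were called lower in KD, and EPCAM was also called with the 20-Mb block median removed (-0.071, adjusted p = 0.0217 from limma). The confidence interval of the EPCAM difference ran from -0.11 to 7.3e-04 in KD and from -0.043 to 0.065 in OE, on a scale that shrinks such low genes strongly. Of the 33 epithelial partners, 7 were higher and 11 lower in KD (21.2% and 33.3%, against 26.9% and 26.9% of all genes) and 3 higher and 8 lower in OE (9.09% and 24.2%, against 16.9% and 18%). KLF5, a factor of proliferating epithelium, had rlog values of 11.10, 11.12 and 11.13 in parental, 10.44, 10.42 and 10.42 in KD, and 10.73, 10.69 and 10.63 in OE. KLF5 was lower in both, by -0.69 and -0.44 (adjusted p = 1.4e-21 and 1.3e-15 from limma), and the groups were apart. LSR, of tricellular junctions, was higher in KD by 0.64 (adjusted p = 5.9e-15 from limma), and CGN, the tight junction plaque protein cingulin, was lower by -0.68 (adjusted p = 3.3e-13 from limma). ERBB3 was higher in KD by 0.31 and in OE by 0.13 (adjusted p = 2.9e-20 and 7.6e-10 from limma).

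Most genes of the mesenchymal list were called higher in each comparison with parental. Of its 11 genes, 7 were higher and 3 lower in KD and 9 higher and 1 lower in OE. The lower genes in KD were FN1, TWIST2 (-0.45) and ZEB2 (-0.15), and the lower gene in OE was TWIST2 (-0.13). Of all genes at mean rlog values from 5 upward, 71.7% were called in KD (35.6% higher) and 50.3% in OE (24.0% higher). Its summed level was 27690, 27612 and 27323 normalized counts per exonic kb in parental, 31922, 32060 and 31921 in KD, and 30613, 30485 and 30822 in OE, with SPARC as the most abundant gene. The sums of both KD and OE lay above all parental sums, and SPARC made 49.3% of the parental sum. On the log2 scale per kb, VIM stood at 13.35 in parental, against 13.73 for SPARC. Other annotated genes share 24.6% of the exonic bases of VIM. The KD difference of SPARC turned and was not called under quantile normalization, as given with the processing. PRRX1, a mesenchymal transcription factor, was at an rlog value of 11.70 ± 0.06 in parental, 12.99 ± 0.01 in KD and 12.39 ± 0.01 in OE (SD, n = 3 each), with the groups apart. PRRX1 was higher by 1.29 in KD and 0.69 in OE (adjusted p = 3.1e-31 and 5.0e-23 from limma). VIM was higher by 0.36 and 0.15 (adjusted p = 9.6e-26 and 5.1e-15 from limma), whereas FN1, the matrix protein fibronectin, was lower in KD by -0.96 and higher in OE by 0.55 (adjusted p = 3.0e-33 and 8.2e-26 from limma). Whether these shifts and the lower keratin levels have a common origin was not tested.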

How the data were processed

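Per the submitters' processing notes, the authors used cutadapt for trimming, HISAT2 for mapping to GRCh38, featureCounts for counts and DESeq2 for the values, and genes totalling under 10 counts were removed. The library kit was TruSeq RNA v2. Versions, annotation release and strand setting are not given in the sources used here. The deposited values are regularized log2 values of 22290 genes in 9 libraries, and 3 further columns were empty. Symbols, positions and exonic lengths came from GENCODE release 44 (22195 genes matched). All 9 libraries were fitted by group with limma 3.58.1 in R 4.3.3 (variance trend) with Benjamini-Hochberg adjustment over all genes and no filter on low values. The procedure was tested on simulated data. Named genes were the most abundant per class or list and those with the largest called differences. KRT5, KRT6A, KRT6C, KRT12, KRT13, KRT16, KRT17, CLDN1, CLDN5, CLDN6, PKP1, PKP2, DES, NEFH, NEFM, GFAP and CDH5 were added after their values were seen. Members and lists were chosen with earlier results of these data known. Alternatives were the fit without trend, a minimum mean rlog of 5, only the groups compared, a replicate block, median centring, quantile normalization, a minimum difference of 0.5, removal of the median of each 20-Mb block, each library left out, and the longest transcript as length.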

Additional observations from a re-analysis of the deposited data

How the results depend on the processing

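The counts of called members were within 1.5 times of the reported ones under all alternatives but 1. Requiring a difference over 0.5 as well left 6 members in KD (1 higher, 5 lower), 3 in OE (all lower) and 3 between OE and KD (all lower in OE), against 1110, 200 and 793 of all 22290 genes. These were 12.2%, 6.12% and 6.12% of members, against 4.98%, 0.897% and 3.56% of all genes. Leaving out each library in turn gave 26 to 29 members in KD, 17 to 20 in OE and 16 to 21 between OE and KD. With the replicate number as a block the counts were 29, 20 and 19. Correlations of deviations between same-numbered libraries ran from -0.071 to 0.14, so the numbers were not taken to pair the libraries. Removing the median of each 20-Mb block gave 34 (9 higher, 25 lower), 21 (5 higher, 16 lower) and 30 (20 higher, 10 lower), against 11 higher and 9 lower reported between OE and KD. Calls over all genes rose as well, to 60.0% in KD, 39.3% in OE and 53.5% between OE and KD. The members' shares were 69.4%, 42.9% and 61.2%. It also turned the rlog difference of TP63 to -0.22 in KD and to 0.23 between OE and KD, that of OVOL1 to 0.045 between OE and KD, and that of CDS1 to -0.20 in KD. KRT18 in KD went to -0.006 (not called). By construction these are shifts by the block medians of well-expressed neighbours (0.23 for TP63 and 0.40 for CDS1 in KD). Quantile normalization turned SPARC in KD to -0.013 (not called), and the cause was not tested. Among the 32 named members with a level, the largest shift per kb with the longest transcript as length was 1.30. Of these, 0 members moved by over 10 percentile points. Outside the members, the parental level of ZEB2 per kb went from 5.76 to 7.21 and the percentile of TRAP1 from 69.1 to 79.2. Every alternative planned was run. The values limit what can be said in 3 ways. The depth of each library is not in the values, rlog shrinks differences of low genes, so an uncalled low member is not shown to be unchanged, and TRAP1 RNA did not follow the labels.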

Other observations

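The other intermediate filament genes ranged widely in level, with DES, NEFH, NEFM and GFAP at percentiles from 3.11 to 17.8. NES, the nestin of neural progenitors, and LMNA, a nuclear lamin, both stood at the percentile 99.2 of the parental level per exonic kb, against 93.7 for KRT18. Of 10 measured, 2 were higher and 5 lower in KD (70%, against 53.7% of all genes called), and 2 higher and 3 lower in OE (50%, against 34.8%). SYNM, or synemin, was at an rlog value of 11.57, 11.63 and 11.59 in parental, 11.07, 11.07 and 11.11 in KD, and 11.58, 11.62 and 11.57 in OE. SYNM was thus lower in the libraries labelled KD alone, by -0.51 (adjusted p = 1.1e-19 from limma), and was -0.0076 from parental in OE. NEFL, the light neurofilament chain, was higher in OE by 0.53 (adjusted p = 4.3e-14 from limma). In KD it was lower by -0.12 (adjusted p = 0.00329 from limma). Other annotated genes share 27.8% of the exonic bases of SYNM and 19.8% of those of NEFL.

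Of the 19 measured adrenergic and chromaffin markers, 5 were higher and 7 lower in KD (26.3% and 36.8%, against 26.9% and 26.9% of all genes) and 3 higher and 3 lower in OE (15.8% each, against 16.9% and 18%). Of this list, SCG2, a granin, was higher in KD by 0.57, and ALK, a receptor kinase, differed by 0.20 in KD and -0.22 in OE. L1CAM, an adhesion molecule of axons, read 10.76, 10.73 and 10.74 in parental, 9.78, 9.83 and 9.82 in KD, and 11.06, 11.08 and 11.11 in OE on the rlog scale. The groups were apart, with differences of -0.93 in KD and 0.34 in OE (adjusted p = 3.7e-25 and 4.4e-13 from limma). Of 5 endothelial markers, 2 were higher and 1 lower in KD (60%, against 53.7% of all genes called) and 2 lower in OE (40%, against 34.8%). KDR, a receptor of endothelial growth factor, was lower in KD by -1.32 and in OE by -0.84 (adjusted p = 9.4e-21 and 6.8e-15 from limma), and PECAM1 was higher in KD by 0.47 and lower in OE by -0.28 (adjusted p = 7.8e-15 and 4.6e-09 from limma). CDH5, a defining cadherin of endothelium, was near the floor in all groups (parental rlog 0.63). Of 4 measured Schwann and melanocyte markers, 1 was higher and 2 lower in KD (25% and 50%, against 26.9% and 26.9% of all genes). In OE, 3 were higher and 0 lower (75% and 0%, against 16.9% and 18%).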
